A study of Ovis aries with 8 samples.

Results

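The genes described here encode AMP-activated protein kinase (AMPK), its upstream kinase LKB1 and the folliculin complex, in hepatocytes of fetal sheep. The 10 symbols were PRKAA1, PRKAA2, PRKAB1, PRKAB2, PRKAG1, PRKAG2, STK11, FLCN, FNIP1 and FNIP2, and members were the rows of the deposited table of 27057 genes that carried one of these symbols. Of the 10, 9 matched a row each. FLCN, folliculin itself, matched no row by symbol and was not analysed here. Polyadenylated RNA was sequenced from 8 libraries of cultured fetal hepatocytes, 4 basal and 4 exposed for 24 h to metformin, a biguanide drug for diabetes. By the titles, 4 cell preparations were split, and every preparation gave a basal and a metformin library. Breed, fetal age, dose, vehicle and the link of preparations to animals are not stated in the labels, so the spread between libraries is that between preparations.

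AMPK is a heterotrimer that senses the energy state of the cell. A catalytic alpha subunit (PRKAA1 or PRKAA2) is held by a scaffolding beta subunit (PRKAB1 or PRKAB2), which also carries a glycogen-binding module, and a gamma subunit (PRKAG1, PRKAG2 or the muscle-enriched PRKAG3) binds AMP, ADP and ATP. LKB1, encoded by STK11, phosphorylates the activation loop of alpha; in liver, active AMPK restrains lipid synthesis, and metformin is widely known to activate it. Folliculin works with FNIP1 or FNIP2 at the lysosome, where it acts on the Rag GTPases, and the complex binds AMPK and keeps the transcription factors TFEB and TFE3 out of the nucleus. These are mostly events on proteins, and transcript levels do not measure kinase activity.

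Levels are FPKM, fragments scaled by transcript length and by library total. Setting members side by side depends on the length used for each gene, and the annotation is not stated. Orders, shares and ratios between genes below carry this limit, which was not tested. The reads behind each value are not recorded and no counting interval can be given. Library totals lay between 1024543 and 1257764 FPKM, with 12733 to 13293 genes at 1 FPKM or more. Pearson correlations of log2(FPKM + 1) between libraries ran from 0.928 to 0.973, with no library standing apart on that measure. Hepatocyte markers were present, with the FPKM of 9 markers summing to 18273 to 28785 in basal libraries and to 9692 to 24682 with metformin; 6 of the 9 fell with metformin and 1 rose. The falls of TTR and TF were not called without the preparation as a block (adjusted p of 0.367 and 0.0908). Those of HNF4A, ASGR1, ASGR2 and TAT were still called (0.00459, 0.0164, 0.00833 and 0.0253), as was the rise of APOB (0.0101). HNF4A fell from a mean of 55.0 to 11.7 FPKM, without overlap. SERPINA1 and TF, with basal means of 12768 and 6099 FPKM, were the largest parts of the sums. Of all genes tested 24.1% were called lower and 19.8% higher. Markers of other liver cells were also present. Stellate and fibroblast markers fell in 7 of 8 cases, the other not passing. Their sums were 1686 to 3446 in basal libraries against 715.3 to 1967 with metformin. Without the block these 7 calls ended (adjusted p of 0.0826 to 0.572). Of 7 endothelial markers 6 were tested, of which 3 fell and 0 rose, and of 6 macrophage markers 3 fell and 1 rose. The calls of these endothelial and macrophage markers ended without the block too (adjusted p of 0.132 to 0.597). Of 3 tested cholangiocyte markers SOX9 rose (1.31 on the log2 scale, adjusted p = 0.00141, without overlap) and KRT7 fell by 0.93 (adjusted p = 0.00778, and 0.219 without the preparation as a block), while EPCAM did not pass. The 4 tested erythroid markers did not pass (adjusted p of 0.0546 to 0.954). In such bulk RNA fewer cells of a type and less RNA per cell cannot be told apart, and the part of these cells in the values below was not tested.

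With metformin 4 of the 9 members rose, 2 fell and 3 did not pass the test. FNIP1 and FNIP2, the folliculin partners, rose most, to 3.64 and 3.08 times their basal mean. The gamma subunit gene PRKAG2 rose to 1.81 times and the minor catalytic gene PRKAA2 to 2.41 times its basal mean. The main catalytic and scaffolding genes PRKAA1 and PRKAB1 fell to 0.755 and 0.723 of theirs. STK11, PRKAB2 and PRKAG1 did not pass. A gene was called at an adjusted p under 0.05 in a limma fit of log2(FPKM + 1) with the preparation as a block, over all 13141 genes tested. Metformin changed 43.9% of these genes (19.8% higher and 24.1% lower), so 6 changed members of 9 is a share not far from the background. All 9 members had an FPKM above 1 in all 8 libraries, so none entered the test through 1 group alone. In 6 of the 9, the same 6 that were called, the basal and metformin values did not overlap, against 25.9% of the genes tested.

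**Figure D1:**
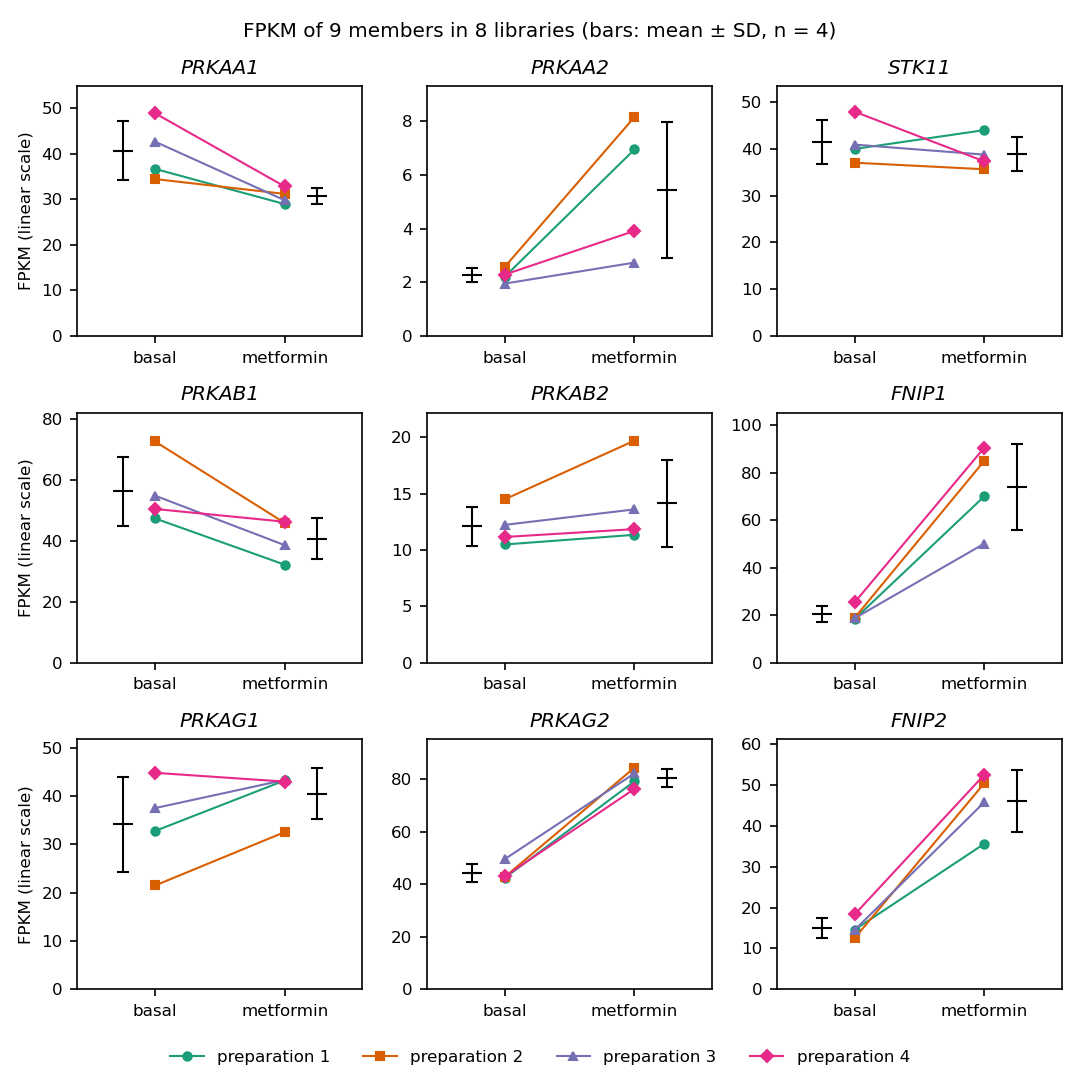
FPKM of the 9 matched members (vertical axes, linear and starting at 0, each with its own range) in basal and metformin libraries, with lines joining the 2 libraries of a preparation and black bars giving the mean ± SD of 4 libraries. FNIP1 climbs from 18.3 to 25.4 in basal to 50.1 to 90.5 in metformin libraries, while STK11 stays between 35.6 and 47.9 in all 8.

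Among basal libraries the members' mean levels followed the order PRKAB1, PRKAG2, STK11, PRKAA1, PRKAG1, FNIP1, FNIP2, PRKAB2 and PRKAA2. The ranges of most neighbours in this order overlapped. FNIP1 lay above FNIP2 in all 4 libraries without overlap, and PRKAB2 lay above PRKAA2 likewise. PRKAB1 exceeded PRKAG2, PRKAA1 exceeded PRKAG1, and PRKAG1 exceeded FNIP1 within each basal library although their ranges overlapped. Against all genes tested, basal means stood between the 7.4th percentile for PRKAA2 and the 79.6th for PRKAB1. With metformin the order became PRKAG2, FNIP1, FNIP2, PRKAB1, PRKAG1, STK11, PRKAA1, PRKAB2 and PRKAA2. FNIP1 and FNIP2 moved from the sixth and the seventh place to the second and the third. There PRKAG2 and FNIP1 overlapped, each being higher in 2 libraries, as did PRKAB1, PRKAG1 and STK11.

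PRKAA1 (ENSOARG00000009317), the catalytic subunit found in most tissues, had FPKM values of 36.7, 34.5, 42.7 and 48.9 in basal preparations 1 to 4 and 29.0, 31.2, 29.8 and 32.9 in the metformin libraries of the same preparations. Every metformin value lay below every basal value, and the metformin libraries were the more alike, with coefficients of variation of 5.51% against 15.9%. The log2 change was -0.38 ± 0.11 (SE; adjusted p = 0.0323), lower in 4 of 4 preparations. This call is weak: adjusted p was 0.0975 without preparation 1, 0.0923 without preparation 3, 0.111 without preparation 4 and 0.0837 without the block. In the authors' deposited table the q-value of PRKAA1 is 0.0562.

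PRKAA2 (ENSOARG00000007851), the catalytic subunit known for its abundance in muscle and heart and also present in liver, was low, with 2.21, 2.58, 1.95 and 2.29 FPKM in basal and 6.95, 8.16, 2.73 and 3.91 in metformin libraries. The groups did not overlap, but the rise was uneven. It was 3.14-fold in preparation 1 and 3.16-fold in preparation 2, against 1.40-fold in preparation 3 and 1.71-fold in preparation 4. The log2 change was 0.89 ± 0.20 (adjusted p = 0.0125), on a scale that understates changes of low genes; with a pseudocount of 0.1 in place of 1 it was 1.11. Adjusted p was 0.0508 without preparation 2 and 0.0579 without the block. Requiring a mean FPKM of at least 5 removed the gene from the test. In the authors' deposited table PRKAA2 has no q-value.

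PRKAA1 supplied 94.6% ± 1.21 of the summed alpha-subunit FPKM in basal libraries and 85.2% ± 6.16 with metformin (SD, n = 4 per group). Its share was lower with metformin in each preparation, with 94.3%, 93.0%, 95.6% and 95.5% against 80.7%, 79.3%, 91.6% and 89.4%, and the groups did not overlap. The log2 change of PRKAA2 exceeded that of PRKAA1 by 1.28 ± 0.36 (SD, n = 4 preparations). In an exact 2-sided sign-flip permutation test this difference was as extreme as 4 preparations allow, in 2 of 16 sign patterns, and the p adjusted over the 4 pairs of paralogues compared was 0.167; the design cannot reach 0.05 for any such difference. The test of the share gave the same adjusted p.

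Of the scaffolding subunits, PRKAB1 (ENSOARG00000001411), the beta subunit that predominates in rodent liver, had 47.4, 72.6, 54.8 and 50.5 FPKM in basal and 32.2, 45.9, 38.6 and 46.3 in metformin libraries. The groups did not overlap, although basal preparation 1 and metformin preparation 4 differed by little. Its log2 change was -0.45 ± 0.12 (adjusted p = 0.0226), lower in 4 of 4 preparations, with the smallest fall in preparation 4, to 0.917 of basal. Adjusted p was 0.0935 without preparation 1, 0.0718 without preparation 2, 0.0618 without preparation 3 and 0.108 without the block, and the authors' deposited table gives a q-value of 0.0581.

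PRKAB2 (ENSOARG00000020520), known as the main beta subunit of skeletal muscle, had 10.5, 14.5, 12.2 and 11.2 FPKM in basal and 11.3, 19.7, 13.6 and 11.8 in metformin libraries. Values were higher with metformin in 4 of 4 preparations, but the groups overlapped and the log2 change of 0.19 (95% interval -0.08 to 0.45) did not pass (adjusted p = 0.210). Both groups were highest in preparation 2. The share of PRKAB1 in the summed beta-subunit FPKM was 82.2% ± 0.757 in basal and 74.4% ± 3.97 in metformin libraries, lower in 4 of 4 preparations. The log2 change of PRKAB1 minus that of PRKAB2 was -0.64 ± 0.35 (SD, n = 4), again as extreme as the design allows in the exact sign-flip permutation test (adjusted p = 0.167), for the difference and for the share alike.

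Of the nucleotide-binding subunits, PRKAG2 (ENSOARG00000004505), a gene mutated in inherited heart disease with glycogen storage, showed the most uniform change of all members. It had 42.4, 42.8, 49.6 and 43.0 FPKM in basal and 79.2, 84.4, 82.2 and 76.3 in metformin libraries. The groups were far apart, and the rise lay between 1.66-fold in preparation 3 and 1.97-fold in preparation 2. Its log2 change was 0.85 ± 0.10 (adjusted p = 0.00159), and it was called under each of the 11 alternative settings, with log2 changes of 0.75 to 0.89. The table holds a single value per gene, so the long and short transcripts known for PRKAG2 cannot be told apart.

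PRKAG1 (ENSOARG00000019034), the gamma subunit of most tissues, had 32.8, 21.5, 37.5 and 44.8 FPKM in basal and 43.2, 32.5, 43.3 and 43.0 in metformin libraries. Preparation 2 was lowest in both groups, and the metformin value was higher in 3 of 4 preparations. The log2 change of 0.28 (95% interval -0.03 to 0.59) did not pass (adjusted p = 0.122). It passed narrowly, at 0.31 and an adjusted p of 0.0486, when libraries were rescaled by the median of ratios. The share of PRKAG1 in the summed FPKM of PRKAG1 and PRKAG2 was 42.8% ± 7.23 in basal and 33.4% ± 3.78 in metformin libraries, lower in 4 of 4 preparations but with overlapping groups. The log2 change of PRKAG2 exceeded that of PRKAG1 by 0.57 ± 0.21 (SD, n = 4; exact sign-flip permutation test, adjusted p = 0.167). The muscle-enriched PRKAG3, taken with the regulators below, averaged 0.267 FPKM in basal and 0.317 in metformin libraries and was too low to be tested.

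**Figure D2:**
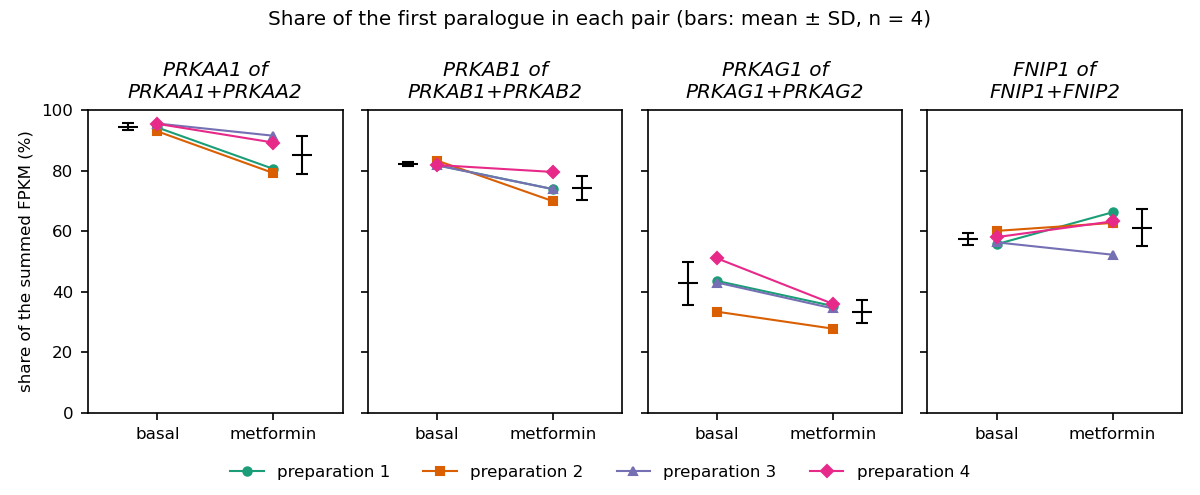
Share (vertical axis, percent, from 0 to 100) of the first-named gene in the summed FPKM of each pair of paralogues, in basal and metformin libraries joined by preparation, with black bars for the mean ± SD of 4 libraries. The shares of PRKAA1, PRKAB1 and PRKAG1 are lower with metformin in all 4 preparations, with means of 94.6%, 82.2% and 42.8% against 85.2%, 74.4% and 33.4%, whereas the share of FNIP1 is higher in 3 and lower in 1.

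Summed over paralogues, gamma transcripts were higher and beta transcripts lower with metformin in all 4 preparations. The alpha sum was 43.0 ± 6.38 FPKM (SD, n = 4) in basal and 36.2 ± 2.81 in metformin libraries, lower in 3 of 4 preparations, with overlapping groups. In preparation 2 it was higher, 39.4 against 37.1, where PRKAA2 gained more FPKM than PRKAA1 lost. The beta sum was 57.8 to 87.1 in basal and 43.5 to 65.6 in metformin libraries, lower in 4 of 4 preparations and overlapping. The gamma sum was 78.6 ± 11.1 and 121.0 ± 3.74, higher in 4 of 4 preparations without overlap. Gamma transcripts per alpha transcript, as a ratio of summed FPKM, were 1.93, 1.73, 1.95 and 1.71 in basal and 3.41, 2.97, 3.86 and 3.24 in metformin libraries. The basal ratios stood close together and all metformin ratios lay above them. The ratio of gamma to beta was 1.19 ± 0.307 in basal and 2.26 ± 0.446 in metformin libraries, higher in 4 of 4 preparations. That of beta to alpha was 1.64 ± 0.496 and 1.51 ± 0.206, higher in 2 preparations and lower in 2. No test was run on the sums and ratios.

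**Figure D3:**
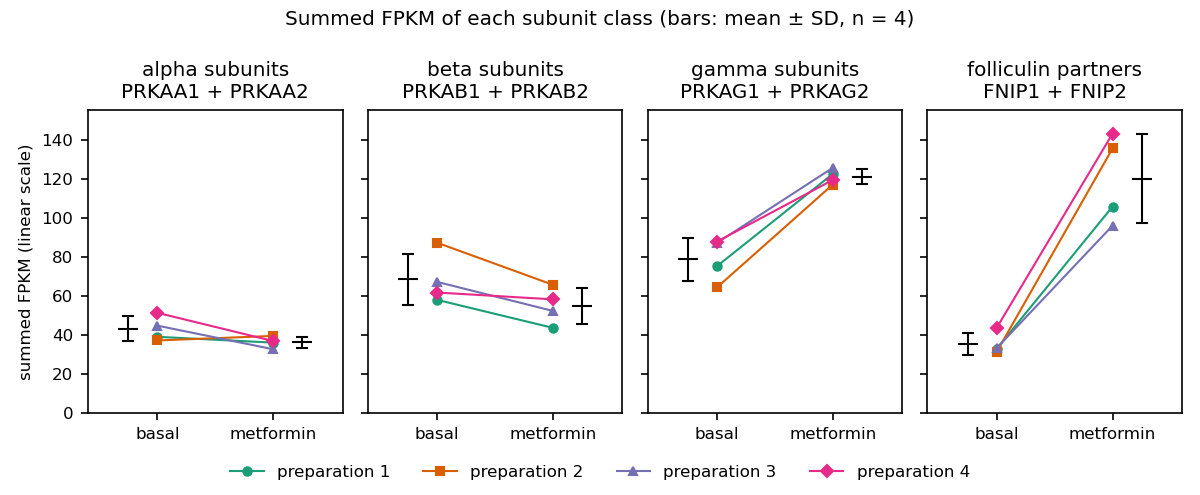
Summed FPKM (vertical axis, linear, shared by the panels) of the alpha, beta and gamma subunit genes of AMPK and of both folliculin partners in basal and metformin libraries, with lines joining the libraries of a preparation and black bars for the mean ± SD of 4. The gamma sum of 117 to 126 and the FNIP sum of 95.9 to 143 with metformin lie above all basal sums, while the alpha and beta sums of the groups overlap.

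STK11 (ENSOARG00000011242), which encodes LKB1, had 40.0, 37.0, 40.9 and 47.9 FPKM in basal and 44.0, 35.6, 38.8 and 37.3 in metformin libraries, overlapping, with a higher metformin value in preparation 1 alone. The log2 change was -0.09 (95% interval -0.36 to 0.19; adjusted p = 0.565), and 0.00 without preparation 4.

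Of 11 genes listed as partners of LKB1 and direct regulators of AMPK, 9 were tested, 3 rose and 2 fell, where 19.8% of all genes tested rose and 24.1% fell; the median log2 change was -0.18, against -0.04 for all genes tested. UBE2O, a ubiquitin ligase known to target the alpha2 protein, rose from 16.6 ± 3.14 to 56.3 ± 12.7 FPKM (SD, n = 4; log2 change 1.69 ± 0.15, SE; adjusted p = 0.000786). PPM1A, a phosphatase that can act on the activation loop, rose from 41.1 ± 5.17 to 61.5 ± 6.26 (0.57 ± 0.12, adjusted p = 0.00936). CAB39, the MO25 scaffold of the LKB1 complex, rose from 56.6 ± 10.6 to 83.1 ± 8.62 (0.56 ± 0.14, adjusted p = 0.0181). Leaving out preparation 1 or 2 ended this call, with adjusted p of 0.0760 and 0.0565. The kinases CAMKK1 and CAMKK2, the latter an alternative activator of AMPK, fell by 0.52 and 0.43 on the log2 scale (adjusted p of 0.0271 and 0.0244), but their calls held in 4 of 10 and 5 of 11 alternatives. STRADA and STRADB, pseudokinases that hold LKB1 in its active form, had log2 changes of -0.38 and -0.18 and did not pass (adjusted p of 0.0527 and 0.259). Nor did MAP3K7, a kinase that can act on alpha, at 0.31 (adjusted p = 0.0608), though it passed with the median of ratios (0.0238).

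Among the AMPK-related kinases, which share LKB1 as their activator, 7 of the 10 tested rose and 0 fell, where 19.8% of all genes tested rose and 24.1% fell, and the median log2 change was 0.53. MARK4, a microtubule-affinity regulating kinase, rose from 9.42 ± 1.55 to 22.4 ± 1.45 FPKM (1.18 ± 0.11, adjusted p = 0.000976). The salt-inducible kinases SIK2 and SIK3, which restrain CREB coactivators in liver, rose from 20.4 ± 4.38 to 36.6 ± 15.1 and from 25.6 ± 4.54 to 37.5 ± 7.43, with log2 changes of 0.74 and 0.53. Both calls ended without the block (adjusted p of 0.127 and 0.0775). So did those of NUAK2, MARK1 and SNRK (0.209, 0.0942 and 0.0623), while those of MARK2 and MARK4 held (0.0256 and 0.00316). MARK3, the most abundant gene of this list that did not pass, had 38.6 ± 8.01 and 39.4 ± 5.90 FPKM.

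FNIP1 (ENSOARG00000016187), folliculin-interacting protein 1 and a direct AMPK substrate, had 18.3, 18.9, 18.7 and 25.4 FPKM in basal and 70.1, 85.0, 50.1 and 90.5 in metformin libraries. All metformin values lay far above all basal values, with preparation 3 the lowest of them. The rise was 3.82-fold, 4.51-fold, 2.68-fold and 3.57-fold in preparations 1 to 4, and the log2 change of 1.79 ± 0.14 (adjusted p = 0.000683) ranked 119th from the top among 13141 genes.

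FNIP2 (ENSOARG00000003354), its paralogue and alternative partner of folliculin, had 14.6, 12.5, 14.5 and 18.3 FPKM in basal and 35.6, 50.4, 45.8 and 52.5 in metformin libraries. The groups were again well apart, and the rise was 2.45-fold, 4.03-fold, 3.16-fold and 2.87-fold. Its log2 change was 1.56 ± 0.14 (adjusted p = 0.000807), ranked 188th. Both calls held under all 11 alternative settings, with log2 changes of 1.68 to 1.93 for FNIP1 and 1.43 to 1.66 for FNIP2. In the authors' deposited table both genes have a q-value of 0.0267, and PRKAG2 one of 0.0250; of the 6 members that have a q-value there, these 3 are under 0.05.

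No difference between the rises of both partners passed. The log2 change of FNIP1 minus that of FNIP2 was 0.23 ± 0.36 (SD, n = 4 preparations; exact sign-flip permutation p = 0.375, adjusted 0.375), with FNIP1 ahead in preparations 1, 2 and 4 and FNIP2 in preparation 3. It was 0.097 without preparation 1 and 0.38 without preparation 3. FNIP1 supplied 57.6% ± 1.97 of their summed FPKM in basal and 61.1% ± 6.13 in metformin libraries, a mean difference of 3.57 points that was 1.251 without preparation 1 and 6.12 without preparation 3. The sum itself was 35.3 ± 5.65 and 120.0 ± 22.8 FPKM, higher in 4 of 4 preparations without overlap. Preparation 4 had the highest sum in both groups.

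**Figure D4:**
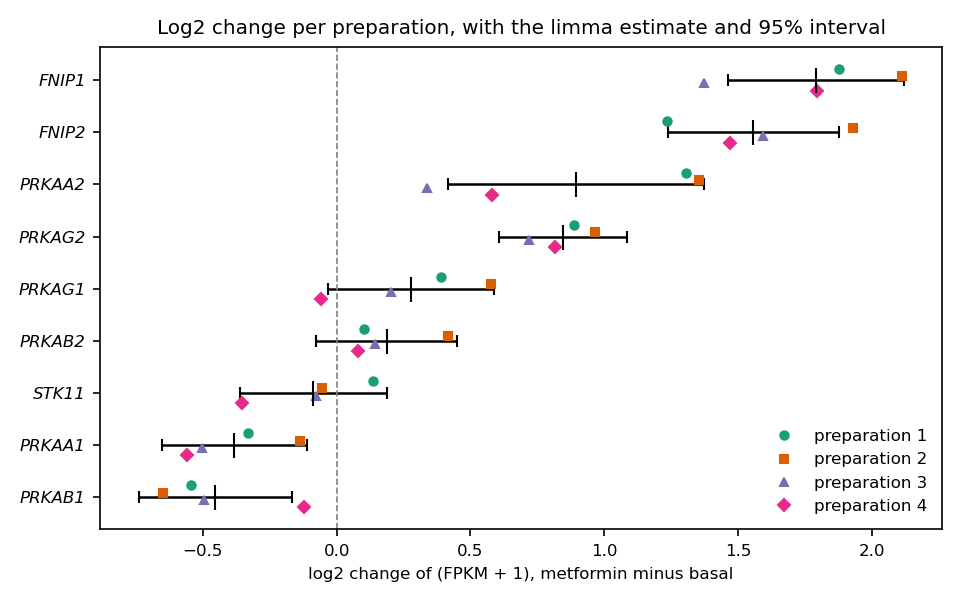
Log2 change of FPKM + 1, metformin minus basal (horizontal axis), of each member in each of 4 preparations (coloured symbols), with the limma estimate and its 95% interval in black and a dashed line at 0. FNIP1 at 1.79 and FNIP2 at 1.56 stand apart on the right, PRKAA2 spreads from 0.34 to 1.36, and PRKAA1 and PRKAB1 lie below 0 in all 4 preparations.

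The genes whose 4 changes lay nearest to those of FNIP1, by the root mean square difference of log2 changes over the 4 preparations, were MXD1, a partner of MAX that opposes MYC (0.0942), the deubiquitinase gene USP13 (0.106) and the solute carrier gene SLC22A15 (0.111). MXD1 rose from 31.7 ± 8.87 to 110.9 ± 30.0 FPKM, USP13 from 5.32 ± 1.05 to 20.7 ± 5.15 and SLC22A15 from 3.96 ± 0.596 to 16.9 ± 4.60. Like FNIP1, all of them changed least in preparation 3. For FNIP2 they were PHKA1, a phosphorylase kinase subunit (0.0868), PLEKHM2, an adaptor that links lysosomes to kinesin (0.127), and PLEKHO1 (0.158). PLEKHM2 rose from 61.7 ± 18.1 to 183.3 ± 51.3 FPKM, and these genes, like FNIP2, rose most in preparation 2 and least in preparation 1. These genes were picked for likeness, so their agreement is a description.

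Among 16 tested genes of folliculin's surroundings at the lysosome 4 rose and 2 fell, against 19.8% and 24.1% of all genes tested, with a median log2 change of 0.04. RRAGD, a Rag GTPase on which folliculin acts, rose from 7.55 ± 3.25 to 18.9 ± 3.35 FPKM (1.30 ± 0.17, adjusted p = 0.00185). MITF, a relative of TFEB, rose from 18.4 ± 2.58 to 31.1 ± 3.09 (0.73 ± 0.11, adjusted p = 0.00302), and LAMTOR1, the membrane anchor of Ragulator, from 103.8 ± 22.4 to 159.2 ± 16.4 (0.63 ± 0.13, adjusted p = 0.00777). TFEB and TFE3 themselves did not pass, at 0.33 and 0.25 on the log2 scale (adjusted p of 0.135 and 0.0758). TFEC, also in this list, fell by 0.46 (adjusted p = 0.0254), a call that held in 5 of 11 alternatives. RRAGA and LAMTOR4 had -0.25 and -0.32 and did not pass, while LAMTOR2 fell by 0.43, a call that held in 8 of 11 alternatives (adjusted p of 0.0163 to 0.234). GABARAP, the most abundant gene here that did not pass, had 587.8 ± 82.5 and 608.6 ± 44.5 FPKM.

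Of 13 tested genes known as targets of TFEB and TFE3, 7 rose and 0 fell, against 19.8% and 24.1% of all genes tested, and the median log2 change was 0.50. The autophagy receptor gene SQSTM1 rose from 732.1 ± 276 to 1759 ± 238 FPKM (1.32 ± 0.14, adjusted p = 0.00126), the protease gene CTSB from 1025 ± 677 to 2842 ± 1315 (1.63 ± 0.18) and GPNMB from 82.5 ± 73.6 to 185.0 ± 119 (1.46 ± 0.21). The calls of CTSB and GPNMB depended on the block (without it, adjusted p of 0.0685 and 0.221). So did those of NEU1 and GLA (0.0697 and 0.449). LAMP1, a main lysosomal membrane protein, had 460.5 ± 53.2 and 462.2 ± 31.9 FPKM, and did not pass. Of the proton pump genes ATP6V1H rose from 30.6 ± 9.53 to 44.6 ± 6.59 (0.57 ± 0.13, adjusted p = 0.0135, and 0.123 without the block), while ATP6V1A, ATP6V1B2 and ATP6V0D1 had log2 changes of 0.16, -0.03 and 0.09 and did not pass. Macrophages also express GPNMB and CTSB. In the same libraries CD68 rose from a mean of 614.2 to 946.4 FPKM. CD14, CD163 and CSF1R fell, while MARCO and PTPRC did not pass. Without the block the calls of these 4 changed markers ended (adjusted p of 0.132 to 0.416). The summed level of the 6 macrophage markers was 591.6 to 1269 in basal libraries against 914.3 to 1453 with metformin. CD68 was the largest part of that sum, and CD14, the next, fell from a mean of 175.1 to 123.3 FPKM. The part of macrophages in the rise of GPNMB and CTSB was not tested.

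AMPK substrates, whose control is mainly by phosphorylation, went both ways: 8 of 23 tested rose and 4 fell, with a median log2 change of 0.22. Of all genes tested 43.9% were called, 19.8% higher and 24.1% lower, so the number of substrates called is near the background. PFKFB3, which makes an activator of glycolysis, rose from 23.3 ± 6.37 to 82.7 ± 30.6 FPKM (1.76 ± 0.13). TXNIP, an inhibitor of glucose uptake that AMPK marks for degradation, fell from 40.7 ± 13.7 to 6.94 ± 1.62 (-2.36 ± 0.15, adjusted p = 0.000499), and liver glycogen synthase GYS2 fell by 1.39 on the log2 scale. The other glycogen synthase gene, GYS1, rose from 10.1 ± 0.708 to 22.7 ± 5.89 FPKM (1.06 ± 0.18, adjusted p = 0.00418), without overlap. The acetyl-CoA carboxylase genes, classical AMPK substrates, gave a single call. ACACA had 0.31 and did not pass (adjusted p = 0.0992, and 0.0217 to 0.317 over the alternatives). ACACB was low and fell by 0.68 (adjusted p = 0.0171), from a mean of 1.84 to 0.694 FPKM, with overlapping groups. Among metformin libraries it reached 1 FPKM in preparation 2 alone, so it entered the test mainly through its basal values. Its call held in 7 of the 9 alternatives, out of 11, in which it was tested. Without the block adjusted p was 0.140. TSC2, RPTOR and ULK1, through which AMPK acts on mTORC1 and autophagy, did not pass, with log2 changes of 0.04, -0.23 and 0.23. MTFR1L, a mitochondrial substrate, had -0.28 and did not pass (adjusted p = 0.0677), though it did after quantile normalization (0.0335).

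Of 13 tested enzymes listed around adenylate balance, 6 fell and 2 rose, against 24.1% and 19.8% of all genes tested, with a median log2 change of -0.35. The list is broader than the interconversion of AMP, ADP and ATP, the ligands of the gamma subunit. The cytosolic adenylate kinase AK1 fell from 9.99 ± 1.40 to 4.22 ± 1.15 FPKM (-1.09 ± 0.12, adjusted p = 0.00126) and the adenine salvage enzyme APRT from 83.0 ± 43.1 to 39.1 ± 11.8 (-0.98 ± 0.15, adjusted p = 0.00300). The AMP deaminase AMPD3 rose from 2.82 ± 1.09 to 5.34 ± 1.67 (0.74 ± 0.12, adjusted p = 0.00400). The calls of APRT and AMPD3 ended without the block (adjusted p of 0.0761 and 0.119). So did the falls of AK4, NT5C and ADSSL1 (0.160, 0.115 and 0.567) and the rise of ADSS (0.186). The falls of AK1 and NT5C2 held (0.00861 and 0.0219).

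**Figure D5:**
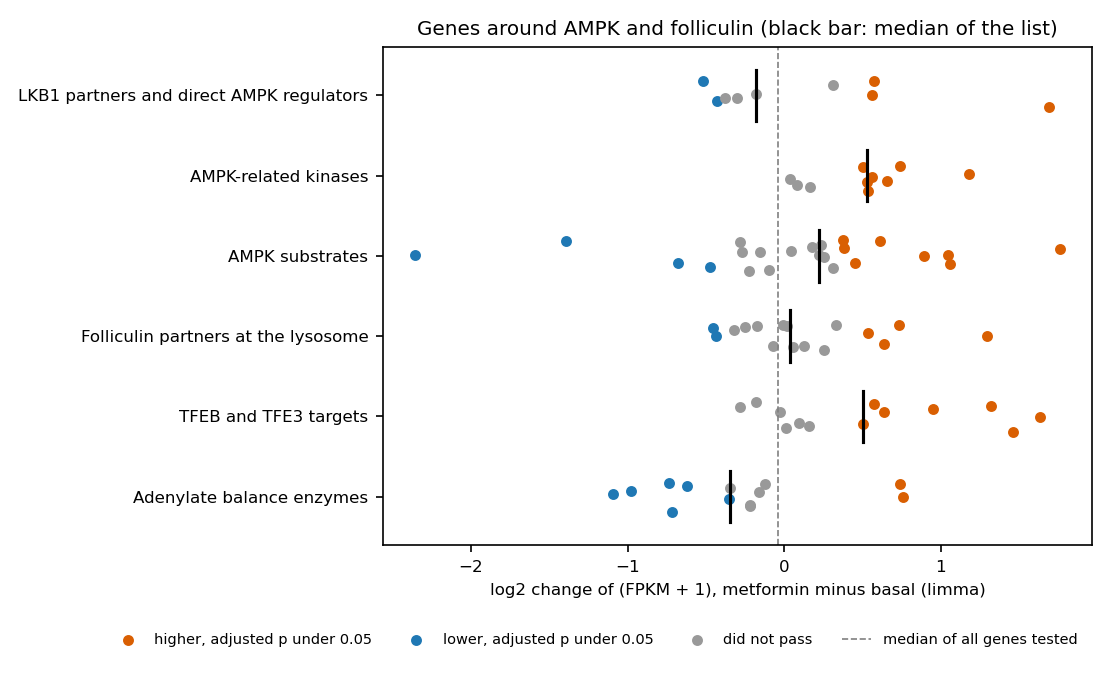
Log2 change of FPKM + 1, metformin minus basal (horizontal axis), of the tested genes in 6 lists around AMPK and folliculin, coloured by whether they passed an adjusted p under 0.05, with a black bar at each list's median and a dashed line at the median of all genes tested, -0.04. The medians run from -0.35 for adenylate enzymes to 0.53 for AMPK-related kinases, and TXNIP at -2.36 is the lowest point.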

How the data were processed

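RNA-seq of 8 libraries was analysed from the authors' deposited table, whose FPKM values were made with Cufflinks on Oar_v3.1, per the submitters' processing notes; the aligner, annotation, versions and strandedness are not stated there. The authors' deposited p-value, q-value and signed fold change (a score) were used only where named. Depth in reads is unknown. A placeholder in 4 cells, none of a member, was set to missing. Values were taken as log2(FPKM + 1), and limma 3.58.1 (R 4.3.3) was fitted to genes that reached 1 FPKM in 4 or more libraries, blocked on preparation and with a mean-variance trend; tests were 2-sided, with Benjamini-Hochberg adjustment over all 13141 genes; standard errors come from moderated variances. The fit was tested on simulated data in which far fewer genes changed than were called here. Its error rate with so many changes was not tested. The block follows the preparation numbers in the labels. Deviations from the group means correlated within preparations (r of 0.489 to 0.585) and at most 0.018 between them. Taking out the group means itself lowers the values between preparations, so only those within preparations bear on the pairing. Paralogues were compared within preparations by exact sign-flip permutation tests.

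Members and lists were chosen with earlier results of these data known. The lists held 100 genes, of which 88 matched and 84 were tested. Named were all members, up to 3 called genes with the lowest p and the most abundant uncalled gene of each list, and the 3 genes nearest in pattern to FNIP1 and to FNIP2; other genes named in the lists and markers were chosen after their values were seen. A gene that this rule names is not reported here. Coordinates and sequences are not given, because the gene table at hand is of another assembly.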

Additional observations from a re-analysis of the deposited data

Results flagged for a closer look

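Within groups of 4 libraries, 6 of 84 groups checked had a value far from the others by Dixon's criterion, which chance alone gives in about 1 in 20 groups. For FNIP1 it was the basal value of preparation 4, 25.4 FPKM against 18.3 to 18.9 in the others. For PRKAG2 it was basal preparation 3, 49.6 FPKM against 42.4 to 43.0, and for PRKAG1 it was metformin preparation 2, 32.5 FPKM against 43.0 to 43.3. The share of PRKAB1 in the beta sum was 83.4% in basal preparation 2 against 81.8% to 81.9%, a small gap in a tight group. Of the other genes named, MITF had 14.5 FPKM in basal preparation 2 against 19.3 to 20.2, and AMPD3 had 2.86 in metformin preparation 1 against 5.84 to 6.43. Of the 6 values, 3 came from preparation 2.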

How the results depend on the processing

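Over 11 alternatives FNIP1, FNIP2 and PRKAG2 kept their direction and call. The members' other calls were less firm: PRKAA1, PRKAB1 and PRKAA2 lost theirs in 10 of the comparisons made, and the direction of these 6 called members held in each. Members that fell numbered 2 in the reported fit, 0 without the replicate block and 0 to 1 on leaving out 1 preparation; members that rose numbered 4, and 3 to 5 over all alternatives. Without the block 1272 genes rose and 1246 fell among all genes tested, against 2605 and 3164 with it, and 14 pathway genes rose and 4 fell, against 31 and 14 with it. Leaving out 1 preparation gave 1680 to 2320 genes higher and 1995 to 2934 lower, and 22 to 28 pathway genes higher and 6 to 11 lower; the cause was not tested beyond the smaller number of libraries. Uncalled changes that changed sign were those of STK11 (-0.16 to 0.0017 on leaving out 1 preparation), MARK3 (-0.030 with quantile normalization, -0.013 to 0.091 on leaving out 1 preparation) and LAMP1 (-0.033 with quantile normalization, -0.011 to 0.034 on leaving out 1 preparation). None of the 40 recomputed paralogue differences and shares changed sign, although those of FNIP1 and FNIP2 moved by over 1.5 times without preparation 1 or 3; with 3 preparations the smallest exact p is 0.25. The comparisons planned between FLCN and its partners were not run. Read depth is unknown, so what it limits could not be measured; PRKAA2 had about 2 FPKM in basal libraries.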
